A study of Mus musculus with 3 samples.

Results

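Krt12, the keratin that marks corneal epithelium, and 7 transcription factors known from that epithelium (Pax6, Klf4, Klf5, Ehf, Elf3, Trp63 and Grhl3) were followed across single cells of the mouse cornea and limbus. These 8 genes were chosen by symbol from the 32285 genes in the count matrices, and all 8 were found. The study profiled 3 libraries of droplet single-cell RNA, 1 for each group, all from wild-type mice. In the first, nitrogen mustard (NM) injury was combined with losartan, in the second NM injury was combined with saline, and the third was uninjured. Eyes were freed of lens, retina, iris and most conjunctiva, and the cornea and limbus were digested with enzymes to single cells, so some conjunctival cells may remain. NM alkylates DNA, and losartan is a blocker of the angiotensin receptor AT1. The design text gives 1 mouse for each group. The losartan dose, the route and the time after injury are not given in the sources used here, nor are age and sex. With 1 library for each group the differences have no replicate check, so no p-value is given, and every 95% interval covers counting error only.

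Corneal epithelium is a stratified, non-keratinised sheet that is renewed from stem cells at the limbus, the rim where cornea meets conjunctiva. Its cells pair the keratin made from Krt12 with the one made from Krt5, and in mouse a loss of Krt12 leaves the epithelium fragile. Pax6, a paired-box and homeodomain factor, directs eye development and holds corneal identity in the adult. Klf4 and Klf5 are zinc-finger factors of the Krüppel-like family that bind CACCC-type sites, Ehf and Elf3 are epithelial factors of the ETS family, Trp63 encodes p63 of basal cells in stratified epithelia, and Grhl3 is a grainyhead-like factor of barrier formation.

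Krt12 lies on chromosome 11 at 99415666 to 99422259 of GRCm38, minus strand, in the GENCODE annotation. The 250 bases before its start site (chr11:99422260-99422509, minus strand, GRCm38.p6, from RefSeq) are shown because the level of this gene is what the comparisons turn on and because 2 of the factors are Krüppel-like. Capitals mark CACCC, or GGGTG where it lies on the other strand.

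Krt12: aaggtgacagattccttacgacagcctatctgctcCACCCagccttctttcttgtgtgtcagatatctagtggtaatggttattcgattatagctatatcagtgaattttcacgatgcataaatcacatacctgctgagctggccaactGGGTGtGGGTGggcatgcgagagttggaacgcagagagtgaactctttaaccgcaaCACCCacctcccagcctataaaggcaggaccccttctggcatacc

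The 4 matches begin 215, 101, 95 and 45 bases before the start site. Of 32851 RefSeq mouse promoters of the same length, 52.0% held CACCC on either strand and 2.14% held it 4 times or more. Neither GGAAG, the letters searched for ETS factors, nor AACCGGTT, searched for grainyhead-like factors, was present on either strand of this window. Of promoters, 64.1% and 0.116% held them. The shorter GGAA does lie in the window and was not counted over promoters. A match describes these letters only and is no evidence of binding. For 5 of the 8 genes a RefSeq promoter was at hand, and Klf5, Ehf and Trp63 were not among them.

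The matrices held 5887 barcodes in the losartan library, 6814 in the saline library and 13270 in the uninjured library, with 83155441 to 177003042 unique molecular identifiers (UMIs, each counted as 1 RNA molecule). Pairs of libraries shared 7 to 28 barcodes, at most 0.476% of the smaller library of a pair. Clusters that scored highest for epithelial markers are called epithelial-like here. They held 1951 cells in the losartan library, 1137 in the saline library and 8949 in the uninjured library. All 15 epithelial markers were at 10 CPM or more in each, but the same markers named the clusters, so this is no separate check. CPM stands for the UMIs of a gene in each 1000000 UMIs of the class. Median depth in these cells was 29958, 13369 and 13681 UMIs in the same order, so shares of cells are compared after each cell was thinned to 3000 UMIs. The injured epithelial-like cells lay in clusters 5, 7 and 12 and the uninjured ones in clusters 0, 2, 4, 10, 11 and 14, apart from 5 cells, so injury and cluster cannot be told apart. In the uninjured library 1662 shallow cells that scored as epithelial stayed unnamed and were left out, against 5 losartan and 2 saline cells. Among 14 macrophage markers the sum in epithelial-like cells was 1055 CPM in the losartan, 1904 CPM in the saline and 401 CPM in the uninjured library, with 3 of the 14 at 10 CPM or more in each. Among 12 stromal markers it was 1476, 1777 and 105 CPM in that order, with 2, 1 and 2 of them at 10 CPM or more. Of 14 neutrophil markers 3, 3 and 0 reached 10 CPM, with sums of 77.6, 199.8 and 6.28 CPM and 0, 0 and 4 of them at 0. Of 9 secretory or goblet markers 1, 1 and 0 did, with sums of 115, 558 and 6.52 CPM and 1, 2 and 4 of them at 0. The part of such RNA in the results was not tested.

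Krt12 was the most variable of the 8 genes. It stood at 12057 CPM in epithelial-like cells of the losartan library, 2475 CPM in the saline library and 31039 CPM in the uninjured library. The losartan library was 4.87-fold higher than the saline library (95% interval 4.84 to 4.90). The saline library was 12.5-fold lower than the uninjured library (12.5 to 12.6), and the losartan library was 2.57-fold lower than the uninjured library (2.57 to 2.58). The losartan value thus lay between the other two, and these comparisons share libraries, so they are not independent of each other. Reads of its antisense neighbour A830036E02Rik came to 868 UMIs in the losartan, 168 in the saline and 7567 in the uninjured epithelial-like cells, against 730887, 107599 and 4282305 for Krt12.

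**Figure D1:**
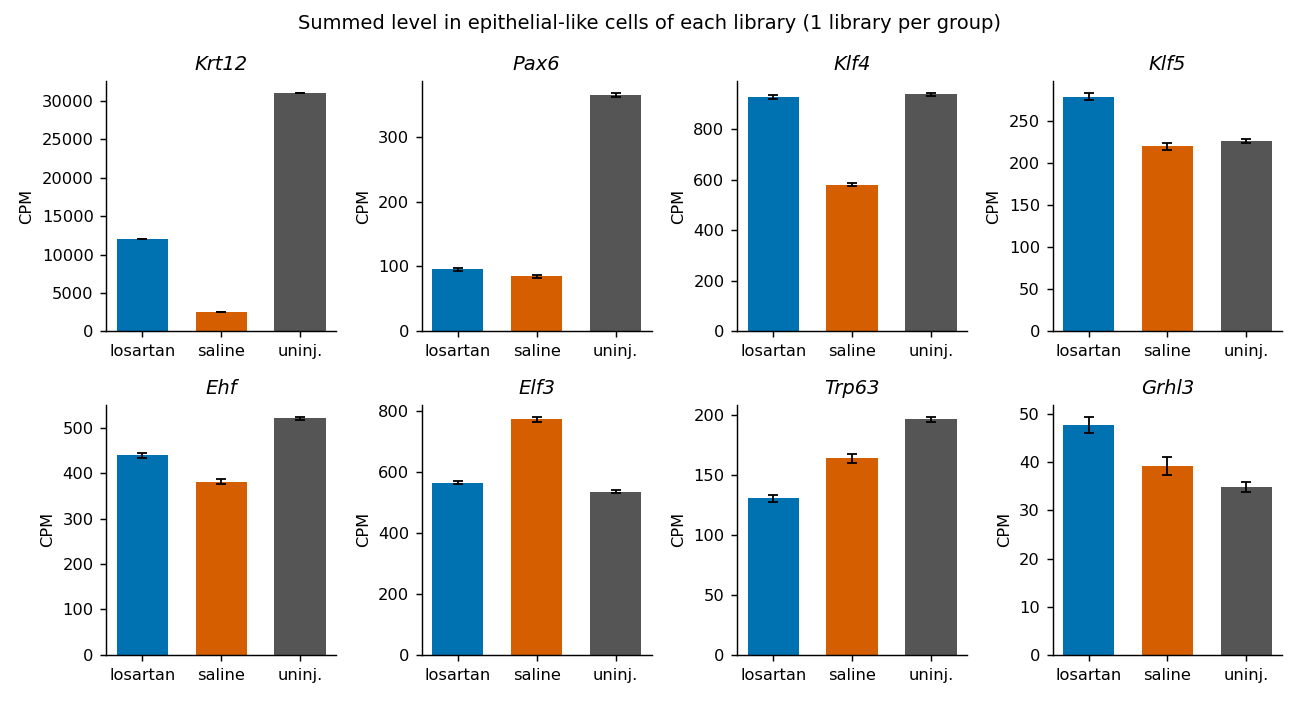
Summed level (CPM, vertical axes from 0) of each of the 8 genes in epithelial-like cells of the losartan, saline and uninjured libraries, 1 bar for each library; error bars are exact Poisson 95% intervals and cover counting error only. Krt12 stands at 12057, 2475 and 31039 CPM, Pax6 is low in both injured libraries (95.6 and 84.5 CPM against 364 CPM), and Klf4 stands at 928, 582 and 940 CPM.

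Within the saline library Krt12 was unevenly spread. The cells that held 50% of the Krt12 UMIs numbered 181 of 1951 losartan, 24 of 1137 saline and 1505 of 8949 uninjured epithelial-like cells. After thinning, the median cell had 17 Krt12 UMIs of 3000 in the losartan library, 0 in the saline library and 78 in the uninjured library. No Krt12 UMI was found in 15.0% of 1612 losartan cells (exact interval 13.3 to 16.9), in 59.0% of 741 saline cells (55.3 to 62.5) and in 0.352% of 8250 uninjured cells (0.236 to 0.504). The share of cells with no Krt12 UMI was thus highest in the saline library.

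Krt12 UMIs were also found in cells that should lack the gene, with stromal levels lowest in the saline and highest in the uninjured library. Stromal fibroblast-like cells averaged 87.0 CPM of Krt12 in the losartan, 30.7 CPM in the saline and 898 CPM in the uninjured library. Neutrophils averaged 363 CPM of Krt12 in those of the losartan library and 24.0 CPM in those of the saline library, with a UMI in 58.5% of 359 and 6.05% of 2495 thinned cells. In stromal fibroblast-like cells a Krt12 UMI was found in 21.9% of losartan, 8.16% of saline and 87.4% of uninjured cells, thinned alike. A single Krt12 UMI is therefore read as background, and shares at a higher cut are given beside it. At least 30 Krt12 UMIs of 3000 were found in 40.1% of losartan epithelial-like cells (37.7 to 42.6), 8.10% of saline cells (6.24 to 10.3) and 93.1% of uninjured cells (92.5 to 93.6). Of neutrophils, 0 of 359 in the losartan and 0 of 2495 in the saline library reached that cut. The exact intervals allow shares of up to 1.02% and 0.148%, and the highest neutrophils had 20 and 12 UMIs. No macrophage or injured stromal cell reached it, and 1 of 373 uninjured stromal cells did. Cells above the level seen in neutrophils were thus more frequent in the losartan than in the saline epithelium. At full depth a Krt12 UMI was found in 95.6% of losartan, 57.3% of saline and 100% of uninjured epithelial-like cells.

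**Figure D2:**
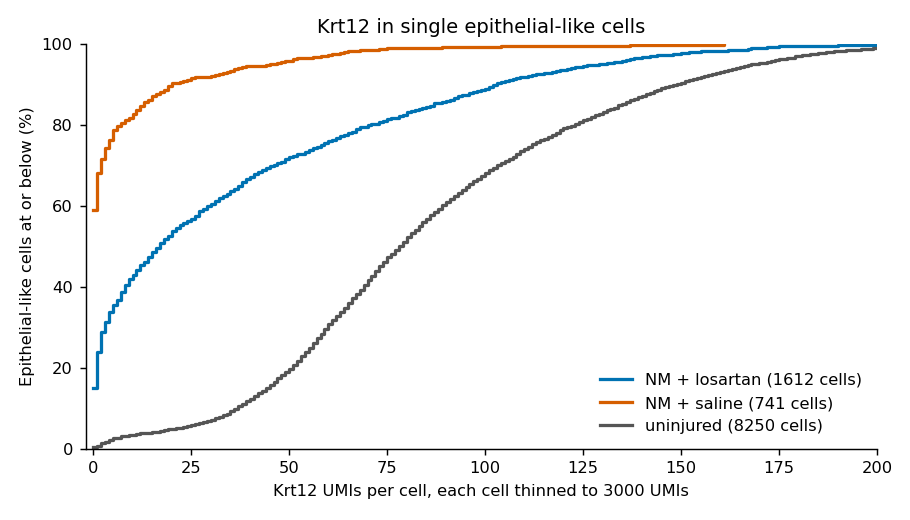
Share of epithelial-like cells (vertical axis, percent) with at most the given number of Krt12 UMIs (horizontal axis, each cell thinned to 3000 UMIs) in the losartan (1612 cells), saline (741 cells) and uninjured (8250 cells) libraries. The losartan curve starts at 15.0%, the saline curve at 59.0% and the uninjured curve at 0.352%, with medians of 17, 0 and 78 UMIs.

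Pax6 (chromosome 2, 105668900 to 105697364, plus strand) was low in both injured libraries. It stood at 95.6 CPM in the losartan library (93.2 to 98.1), 84.5 CPM in the saline library (81.8 to 87.3) and 364 CPM in the uninjured library (361 to 367). The losartan library was 3.81-fold and the saline library 4.31-fold lower than the uninjured library, and the losartan to saline ratio was 1.13 (1.09 to 1.18). At 3000 UMIs for each cell, 24.5% of losartan, 22.5% of saline and 65.7% of uninjured epithelial-like cells had a Pax6 UMI (69.3%, 54.97% and 94.03% at full depth). In neutrophils, macrophages and stromal cells of the same libraries that share was at most 2.68%. Where Krt12 differed 4.87-fold between the injured libraries, Pax6 differed little. The antisense Pax6os1 had 214, 184 and 1697 UMIs in losartan, saline and uninjured epithelial-like cells; the sources used here do not say whether counting used strand.

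Of the Krüppel-like factors, Klf4 was lower in the saline library than in the others, and Klf5 was close in all 3. Klf4 (chromosome 4, 55527143 to 55532466, minus strand), which in mouse is needed for a normal corneal epithelium, stood at 928 CPM in the losartan library, 582 CPM in the saline library and 940 CPM in the uninjured library. The losartan library was 1.60-fold above the saline library (1.57 to 1.62) and at 0.988 of the uninjured library (0.978 to 0.998). The share of thinned cells with a Klf4 UMI was 80.1%, 63.8% and 88.6% in the losartan, saline and uninjured libraries (88.4%, 69.5% and 95.7% at full depth). Klf4 was also found outside the epithelium, with a UMI in 68.3% of losartan and 58.1% of saline macrophages at the same depth. Klf5 (chromosome 14, 99298691 to 99315036, plus strand), a factor of proliferating epithelia, stood at 279 CPM in the losartan, 219.9 CPM in the saline and 226 CPM in the uninjured library. No pair of libraries differed by 1.5-fold for Klf5, the widest being losartan over saline at 1.27 (1.24 to 1.30). Its thinned shares were 55.6%, 47.4% and 46.0% of losartan, saline and uninjured cells (83.0%, 66.8% and 82.0% at full depth).

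Neither ETS factor was called different between any pair of libraries. Ehf (chromosome 2, 103263433 to 103303278, minus strand), a factor of epithelial differentiation, stood at 439.8 CPM in the losartan, 382 CPM in the saline and 521 CPM in the uninjured library, and thinned shares were 67.4%, 59.4% and 74.2% (86.4%, 68.95% and 93.97% at full depth). Elf3 (chromosome 1, 135253575 to 135258568, minus strand), a factor of terminal epithelial differentiation, stood at 564 CPM in the losartan, 772 CPM in the saline and 535 CPM in the uninjured library. It was the one member whose level was highest in the saline library. Its losartan to saline ratio was 0.731 (0.720 to 0.742) and its saline to uninjured ratio 1.44 (1.42 to 1.46), both short of 1.5-fold. Thinned shares for Elf3 were closer together, at 52.4%, 51.6% and 47.0% of losartan, saline and uninjured cells (75.3%, 62.8% and 71.99% at full depth). Its antisense neighbour Gm26642 had 27, 23 and 145 UMIs in the same order.

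Trp63 was lowest in the losartan library, and no pair of libraries was called different for Trp63 or Grhl3. Trp63 (chromosome 16, 25683763 to 25892102, plus strand) stood at 130.2 CPM in the losartan, 164 CPM in the saline and 196 CPM in the uninjured library, with a UMI in 26.8%, 32.4% and 44.1% of thinned cells (56.3%, 48.2% and 79.9% at full depth). Its losartan to uninjured ratio was 0.664 (0.648 to 0.681), which missed the 1.5-fold call on the CPM + 5 scale. It was called lower on the CPM + 1 scale, with no doublets removed (0.636), with a gate on single cells in place of clusters (0.614) and with cells thinned to 3000 UMIs (0.619). Grhl3 (chromosome 4, 135541888 to 135573630, minus strand) stood at 47.7 CPM in the losartan, 39.2 CPM in the saline and 34.9 CPM in the uninjured library. After thinning, a Grhl3 UMI was found in 13.7% of losartan, 8.10% of saline and 7.96% of uninjured cells (47.8%, 33.0% and 27.4% at full depth). In neutrophils, macrophages and stromal cells, thinned alike, shares of Klf5, Ehf, Elf3, Trp63 and Grhl3 were at most 5.01%.

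Counted together, a gene is called higher or lower where its CPM + 5 differed at least 1.5-fold. For losartan over saline, 2 of the 8 members were higher, Krt12 and Klf4, where 2.14% of the 8082 genes at 10 CPM or more were; none was lower, where 5.7% of genes were. For saline over uninjured, 3 were lower (Krt12, Pax6 and Klf4; 17.4% of 8714 genes) and none was higher (19.5%). For losartan over uninjured, 2 were lower (Krt12 and Pax6; 19.3% of 8501 genes) and none was higher (15.3%). In each comparison the count of members rests on few genes. The median of ratios over all genes lay at log2 values of -0.06, 0.01 and -0.02, so scaling by it changed little.

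Cluster by cluster, Krt12 and Klf4 were higher in the losartan than in the saline library in all 3 injured clusters. Cluster 5 (922 losartan and 367 saline cells) had 5053 CPM of Krt12 in the losartan and 555 CPM in the saline library, a ratio of 9.10 (8.92 to 9.27). Cluster 7 (692 and 331 cells), whose leading genes include Sprr genes and Krt4, had 20424 and 4316 CPM, a ratio of 4.73 (4.70 to 4.76). Cluster 12 (334 and 438 cells), with a median of 1580 and 1553 UMIs for each cell, had 9043 and 1344 CPM, a ratio of 6.73 (6.39 to 7.09). The losartan library was thus higher within each cluster as well as over all of them. Klf4 ratios in clusters 5, 7 and 12 were 1.81, 1.59 and 2.62.

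For the other factors the clusters did not all point one way. Pax6 had a losartan to saline ratio of 1.37 in cluster 5 (1.29 to 1.46), 0.928 in cluster 7 (0.874 to 0.985) and 1.23 in cluster 12 (0.892 to 1.69). Elf3 had 1.26 in cluster 5 (1.19 to 1.34), 0.771 in cluster 7 (0.759 to 0.783) and 1.81 in cluster 12 (1.58 to 2.07). The pooled Elf3 ratio of 0.731 lies below all of these. Cluster 7, where Elf3 was high, held 27433777 of 60619246 losartan and 21902281 of 43479960 saline epithelial-like UMIs, a smaller part in the losartan library. Trp63 was below 1 in each cluster, at 0.703, 0.820 and 0.681, the last with an interval that spans 1. Grhl3 was 2.08-fold higher in cluster 5 (1.82 to 2.38), at 29.2 CPM in the losartan and 14.1 CPM in the saline library. Members called higher numbered 3 in cluster 5 (Krt12, Klf4 and Grhl3; 2.35% of genes), 2 in cluster 7 (Krt12 and Klf4; 2.94%) and 4 in cluster 12 (Krt12, Klf4, Ehf and Elf3; 10.5%). None was lower, where 5.41%, 7.66% and 14.5% of genes were.

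**Figure D3:**
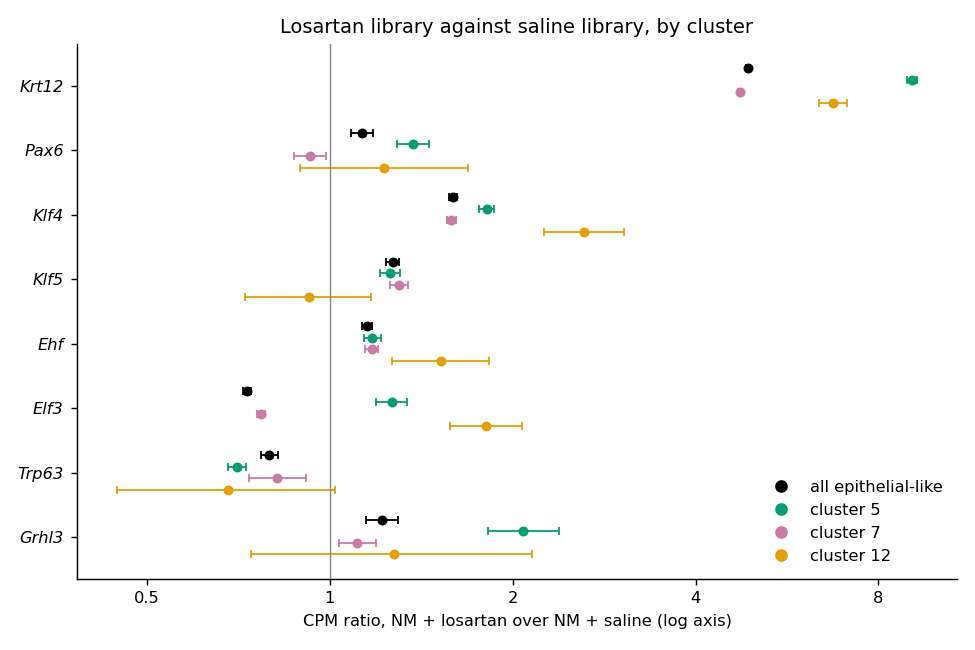
CPM ratio of the losartan library over the saline library (horizontal log axis, 1 marks no difference) for each of the 8 genes, over all epithelial-like cells and in clusters 5, 7 and 12; bars are exact conditional binomial 95% intervals and cover counting error only. Krt12 lies at 4.73 to 9.10 and Klf4 at 1.59 to 2.62 in every cluster, while Elf3 lies at 0.771 in cluster 7 and at 1.26 and 1.81 in clusters 5 and 12.

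Within the uninjured epithelium the members differed by cluster. Uninjured cluster 14, led by Serpinb3a and Gpha2 and rich in limbal markers, had the least Krt12 of the uninjured clusters, 5807 CPM, against 20837 to 45200 CPM in the other 5. It also had the least Klf4 (493 CPM) and the most Klf5 (423 CPM) of them. Uninjured cluster 11, rich in superficial markers such as Muc4, had the most Elf3 (1641 CPM), Klf4 (1179 CPM) and Grhl3 (66.9 CPM) and the least Pax6 (159 CPM) and Trp63 (26.8 CPM). Cluster 0, the largest, had the reverse order, with 632 CPM of Pax6, 434 CPM of Trp63, 98.0 CPM of Elf3 and 9.63 CPM of Grhl3. Between clusters 0 and 11, Pax6 and Trp63 were thus high where Elf3 and Grhl3 were low. Pax6 did not keep to this in every cluster. Cluster 4 had more Pax6 than cluster 2 (354 against 247 CPM) and also more Elf3 (688 against 277 CPM).

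Among injured cells the same opposition of Trp63 and Elf3 divided clusters 5 and 7. Trp63 stood at 221 CPM in losartan and 315 CPM in saline cells of cluster 5, and at 24.7 and 30.1 CPM in cluster 7. Elf3 stood at 107 and 84.3 CPM in cluster 5, and at 1106 and 1435 CPM in cluster 7. Pax6 did not follow this division: it was between 75.1 and 103 CPM in clusters 5 and 7 of both libraries, below its lowest uninjured cluster. Krt12 in the losartan library reached 20424 CPM in cluster 7, whereas no saline cluster exceeded 4316 CPM. That value was near uninjured cluster 10 (20837 CPM), which is led by cell cycle genes such as Top2a and Mki67. It was below uninjured cluster 11 (40541 CPM), which is rich in superficial markers (summed 9232 CPM) as losartan cluster 7 is (9732 CPM). Basal markers, though, summed to 13685 CPM in losartan cluster 7 and to 446 CPM in uninjured cluster 11.

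**Figure D4:**
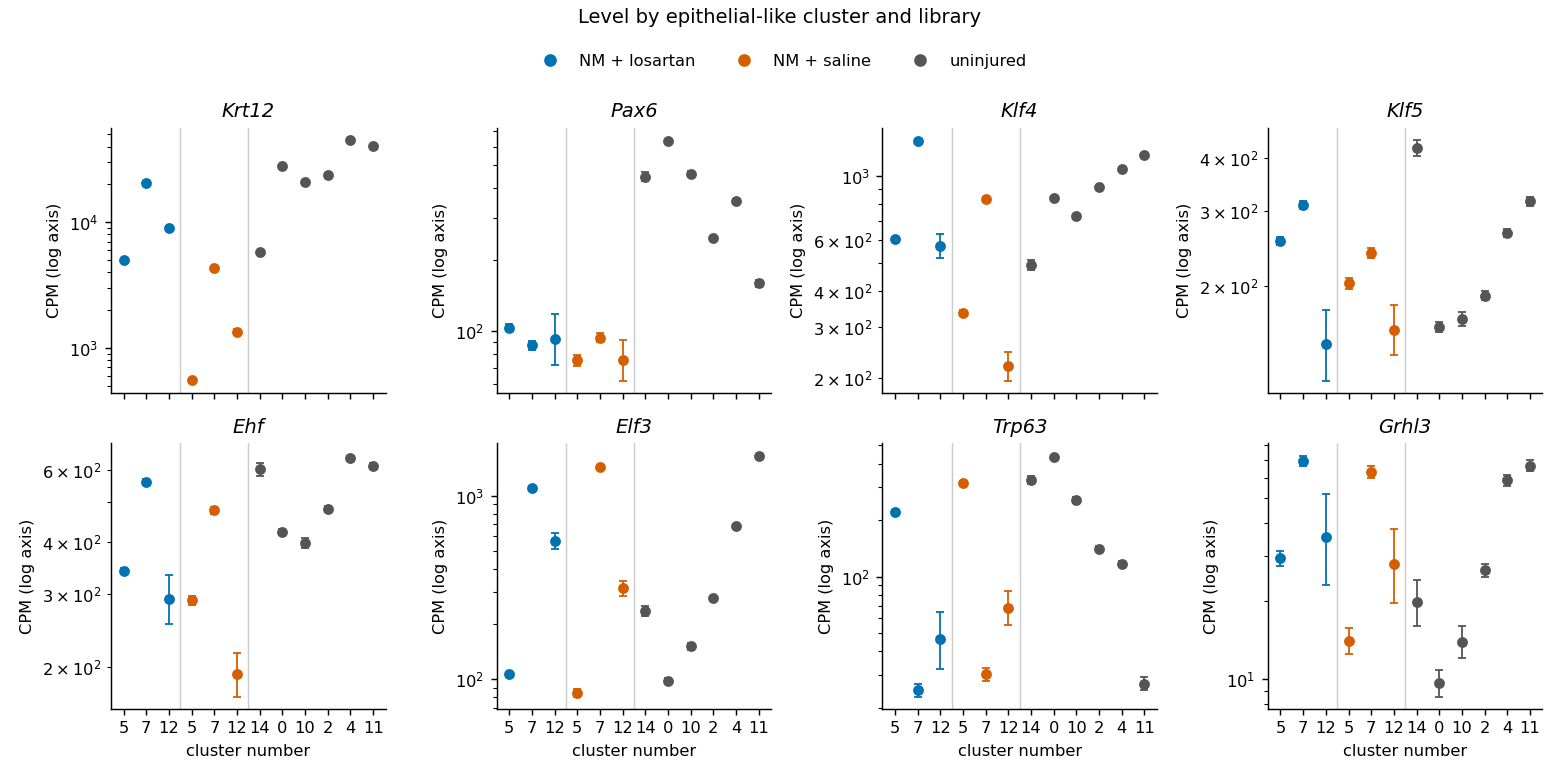
Level (CPM, log axis) of each of the 8 genes in each epithelial-like cluster (cluster number on the horizontal axis), for losartan, saline and uninjured cells in that order; error bars are exact Poisson 95% intervals. Trp63 is lower and Elf3 higher in cluster 7 than in cluster 5 of both injured libraries, and in cluster 11 than in cluster 0 of the uninjured library, while Pax6 is at 75.1 to 103 CPM in every injured cluster and at 159 CPM or more in every uninjured one.

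To relate each factor to Krt12 across cells, the thinned cells of each library were ranked by Krt12 UMIs and cut into 4 equal groups. Upper cuts lay at 2, 17 and 59 Krt12 UMIs in the losartan library, 0, 0 and 4 in the saline library and 56, 78 and 112 in the uninjured library. In the saline library 437 cells tied at 0, so its bottom group is a random draw of them. Levels here are CPM of all UMIs other than Krt12. Klf4 was 1660 CPM in the top and 524 in the bottom group of the losartan library, a ratio of 3.17 (2.90 to 3.47). Its ratio was 1.41 in the saline library (1.21 to 1.64) and 1.60 in the uninjured library (1.54 to 1.66). Elf3 had 3.16 in the losartan library (2.82 to 3.54), 1.34 in the saline library (1.16 to 1.54) and 2.98 in the uninjured library (2.81 to 3.15). Both factors were called higher in Krt12-rich cells of the losartan and uninjured libraries, and neither was in the saline library. The top groups are unlike, since the saline one began at 4 Krt12 UMIs, against 59 and 112. In saline cells, Klf4 was 487 CPM at 0, 436 CPM at 1 to 9 and 1130 CPM at 30 to 59 Krt12 UMIs (38 cells). Elf3 was 653, 452 and 1335 CPM there, so the ratios do not show a weaker relation in the saline library.

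Trp63 went the other way in all 3, with top to bottom ratios of 0.214 in the losartan library (0.155 to 0.289), 0.568 in the saline library (0.426 to 0.754) and 0.449 in the uninjured library (0.415 to 0.485). Grhl3 had ratios of 1.59, 2.32 and 4.02, the losartan one ranging from 0.844 within cluster 5 to 2.91 with no doublets removed, and Ehf 1.79, 1.55 and 1.39 in the losartan, saline and uninjured libraries. Klf5 had 1.37, 1.18 and 1.14. Pax6 had 1.40 in the losartan library (1.08 to 1.83), 2.18 in the saline library (1.43 to 3.38) and 0.926 in the uninjured library (0.876 to 0.978). Against all 437 saline cells with no Krt12 UMI, in place of the draw, the ratio was 1.61 (1.18 to 2.19). With no doublets removed, which also changed the cells and clusters, it was 1.01. In the uninjured library, then, Pax6 was close to even across the Krt12 range.

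Of the 7 factors, 4 were at least 1.5-fold higher in the top group of the losartan library (Klf4, Ehf, Elf3 and Grhl3; 11.3% of genes), 3 in the saline library (Pax6, Ehf and Grhl3; 11% of genes) and 3 in the uninjured library (Klf4, Elf3 and Grhl3; 9.73% of genes). The saline names changed with the settings: Klf4 was called higher there at 1500 UMIs (2.11), at 10000 UMIs (1.66), with no thinning (1.60) and with no doublets removed (1.86), and Pax6 was no longer called in the last 3 of these. Trp63 was the 1 factor lower in each, where 42.4%, 21.7% and 24.9% of genes were lower, so that a lower value in Krt12-rich cells was common. Spearman's rho of Klf4 with Krt12 was 0.45 over 1612 losartan cells, 0.21 over 741 saline cells and 0.24 over 8250 uninjured cells, and that of Elf3 was 0.44, 0.15 and 0.32. Those of Pax6 were 0.07, 0.10 and -0.02. Cells of 1 library share its depth and free RNA, and in counts this sparse weak values of rho carry no finding.

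Part of these relations was a difference between clusters. Within losartan cluster 7, the ratio of Klf4 between its own top and bottom Krt12 groups was 2.44 (2.17 to 2.75), but that of Elf3 was 1.19 (1.06 to 1.33). Within losartan cluster 5, Klf4 had 1.99 (1.74 to 2.29), Elf3 3.93 (2.76 to 5.72) and Trp63 0.793 (0.632 to 0.993). Within uninjured cluster 11, Elf3 was lower in Krt12-rich cells, at 0.782 (0.715 to 0.854), and within saline cluster 7 it was 0.876 (0.753 to 1.02). Klf4 was at 0.964 or more in each of the 10 cluster and library pairs with at least 200 cells. The ratio of Klf4 was therefore above 1 within both losartan clusters, whereas that of Elf3 lay on either side of 1 among clusters. Grhl3 was higher in Krt12-rich cells of uninjured cluster 0, at 4.88 (2.24 to 12.1), and Klf5 was lower in those of cluster 11, at 0.753 (0.616 to 0.92).

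Cells were also sorted by how many of the 7 factors had a UMI. In losartan cells with 2 factors the median was 5 Krt12 UMIs of 3000 (308 cells), and in those with 5 factors it was 38 (203 cells). In uninjured cells it was 69 with 2 factors (931 cells) and 88 with 5 factors (1645 cells). In saline cells it was 0 for each number up to 5 and 14 with 6 factors (10 cells), and since 59.0% of saline cells had no Krt12 UMI a median of 0 cannot show a relation. Among pairs of factors, Elf3 and Trp63 had the most negative rho in every library, at -0.34, -0.44 and -0.29 over losartan, saline and uninjured cells. Klf4 and Elf3 had 0.37, 0.42 and 0.15. Pax6 and Trp63 had 0.09 over losartan, 0.07 over saline and 0.24 over uninjured cells.

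Cells were also compared at matched Krt12, in ranges chosen after the data were seen. Among cells with 60 to 119 Krt12 UMIs of 3000, 291 losartan cells had 114 CPM of Pax6, on the scale without Krt12, and 4049 uninjured cells had 499 CPM. The ratio was 0.229 (0.185 to 0.280). In the 4 lower ranges it was 0.234 to 0.312 for losartan over uninjured and 0.287 to 0.334 for saline over uninjured. Injured cells as rich in Krt12 as uninjured ones thus still had less Pax6, though the uninjured group with no Krt12 UMI held 29 cells only. The size of this gap also depends on the cells compared, since matched groups can differ in their mix of clusters. Of all UMIs, Pax6 stood at 87.0 CPM in losartan cluster 7 and at 159 CPM in uninjured cluster 11, both rich in superficial markers. These clusters were unlike in other markers. Basal markers summed to 13685 CPM in losartan cluster 7 and 446 CPM in uninjured cluster 11, and limbal markers to 19493 and 4398 CPM. Between losartan and saline cells at matched Krt12, the Pax6 ratio was 0.788 to 1.05, and every interval included 1, the widest reaching 0.557 and 1.67.

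At the same Krt12 range of 60 to 119 UMIs, Elf3 was 969 in losartan and 314 in uninjured cells (ratio 3.09, 2.86 to 3.33). Trp63 was 51.9 in losartan and 284 in uninjured cells (0.183, 0.133 to 0.246). Klf4 was 1544 and 948 (1.63, 1.54 to 1.72), Klf5 336 and 201 (1.67, 1.47 to 1.89) and Grhl3 66.0 and 27.5 (2.40, 1.77 to 3.19). Ehf was nearly even at 561 and 490 (1.15, 1.04 to 1.26). Losartan over saline at matched Krt12, Klf4 ratios were 0.891 to 1.29 in the 4 ranges and 3 of their intervals included 1, the exception being 1.29 (1.11 to 1.51) at 1 to 9 UMIs. Elf3 was lower in losartan than in saline cells in each of them, at 0.453 to 0.586. Matching on Krt12 need not match clusters, and the mix of clusters in each range was not tested. At 30 to 59 UMIs, Trp63 was 147 in 251 losartan and 17.8 in 38 saline cells. The saline value rests on 2 Trp63 UMIs (2.15 to 64.3). At 0, 1 to 9 and 10 to 29 Krt12 UMIs, the losartan to saline ratio of Trp63 was 0.749, 0.875 and 1.01. Krt12 counts of the 0 and the 1 to 9 range, and part of the 10 to 29 range, were also seen in neutrophils. Within clusters the Klf4 ratio stayed at 1.59 to 2.62, so the matched values do not show what it would be among cells of 1 kind.

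**Figure D5:**
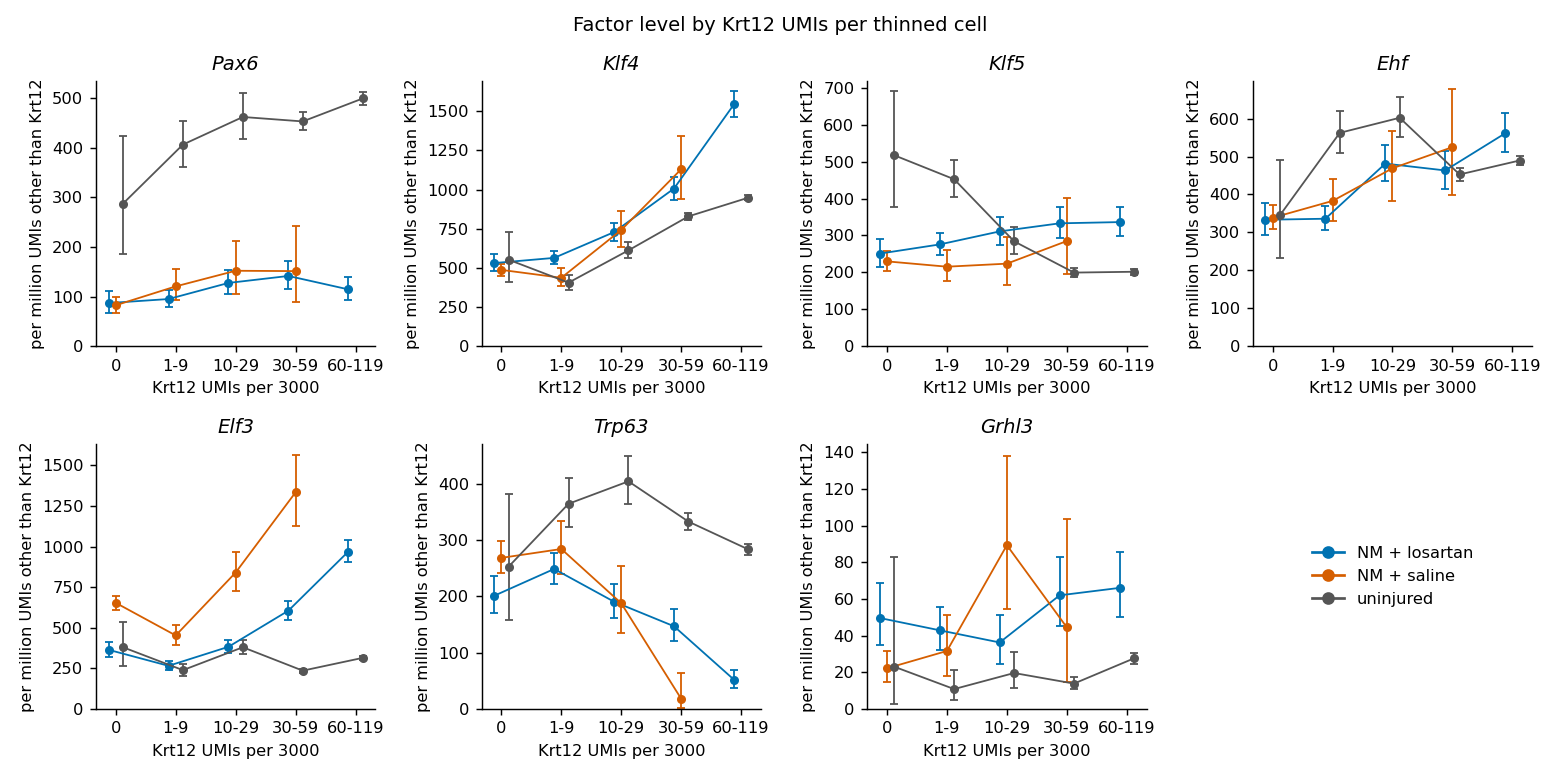
Level of each of the 7 factors (CPM of UMIs other than Krt12, vertical axes from 0) in epithelial-like cells grouped by Krt12 UMIs of 3000 (horizontal axis), for the losartan, saline and uninjured libraries; bars are exact Poisson 95% intervals, and groups under 20 cells are not drawn. The uninjured Pax6 points lie above every injured one (499 against 114 at 60 to 119 Krt12 UMIs), and the Klf4 points of losartan and saline cells lie close (ratios 0.891 to 1.29).

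Over 6909 genes at 10 CPM or more in all 3 libraries, those most like Krt12 by the median of the 3 within-library rho values were Aqp5 (0.72), Gsta4 (0.55), Mal (0.54), Upk3bl (0.50) and Krt6a (0.49). Those least like it were Ptma (-0.42), Itgb4 (-0.34), Nrg1 (-0.34), Itgb1 (-0.32) and Cdh13 (-0.32). Aqp5 encodes a water channel of the corneal epithelium, and its level was 1879.9 CPM in the losartan, 701 CPM in the saline and 5179 CPM in the uninjured library. For Elf3 the nearest genes were Gsto1 (0.71), Mal (0.71) and Krt6b (0.68), and for Trp63 Col17a1 (0.40), Itga6 (0.38) and Xist (0.33). For Klf4 they were Emp1 (0.42), Krt6b (0.39) and Mal2 (0.39). The others had weak neighbours: Meis2 (0.23), Meis1 (0.18) and Xist (0.17) for Pax6, Lmo7 (0.25), Dsg3 (0.25) and Dsc2 (0.20) for Ehf, Calml3 (0.19), Krt6a (0.18) and Mal (0.17) for Grhl3, and Lmo7, Zfand5 and Atp2b1 at 0.16 or less for Klf5.

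Genes of differentiated corneal epithelium went with Krt12. Of 16 measured, 9 were higher in the losartan than in the saline library and none lower, beside 2.14% and 5.7% of all genes. The median log2 ratio was 0.97 against -0.06 over all genes. Slurp1, a secreted Ly6-type protein, stood at 98.9 CPM in the losartan and 2.51 CPM in the saline library, Aldh3a1, a corneal crystallin and detoxifying enzyme, at 1363 and 282 CPM, and Mgarp at 775 and 198 CPM. In the uninjured library these 3 stood at 4593, 11077 and 3972 CPM. For saline over uninjured 11 were lower and 1 higher (Ndrg1), beside 17.4% and 19.5% of all genes. The median log2 ratio was -2.51 against 0.01. For losartan over uninjured 11 were again lower and 1 higher, beside 19.3% and 15.3%, with a median of -1.38 against -0.04. Members such as Krt5, the partner of Krt12, differed little, at 4509, 4234 and 6055 CPM in the losartan, saline and uninjured libraries.

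Other epithelial transcription factors were counted in the same way. For the 22 measured for losartan over saline, the median log2 ratio was 0.12. Of these, 1 was higher and none lower, beside 2.14% and 5.7% of all genes. The 1 was Hes1, a Notch target, at 221 CPM in the losartan and 141 CPM in the saline library. For saline over uninjured 5 of 23 were higher and 9 lower (median -0.52), beside 19.5% and 17.4% of all genes. For losartan over uninjured 5 of 22 were higher and 5 lower (median -0.38), near the 15.3% and 19.3% of all genes. Barx2, a homeobox factor, had the highest ratio in both, at 116 CPM in the losartan and 169.5 CPM in the saline library against 6.39 CPM in the uninjured library. Elf5, an ETS factor, followed at 25.9 and 33.7 CPM against 4.49 CPM, and Zfp750, a factor of epidermal differentiation, was at 126 and 87.6 CPM against 189 CPM.

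Epidermal and basal genes were read beside them. Of 16 epidermal names, 6 were measured, which needs 10 CPM or more in either library of a pair. A gene near 0 in uninjured cells could thus enter only through an injured library, and so only as higher. The counts and medians against the uninjured library partly follow from this filter and do not describe the whole list. For saline over uninjured 5 were higher and none lower (median log2 ratio 3.42), beside 19.5% and 17.4% of all genes. For losartan over uninjured 5 were likewise higher and none lower (2.42), beside 15.3% and 19.3%. Sprr1b, a cornified envelope protein, stood at 674 CPM in the losartan and 739 CPM in the saline library against 0.130 CPM in the uninjured library. Between the injured libraries 2 of the 6 were lower with losartan and none higher, beside 5.7% and 2.14% of all genes. They were Sprr2d, at 39.7 CPM against 152 CPM in the saline library, and Ivl, at 19.0 against 40.7 CPM. Krt1, Krt2, Lor and Flg, genes of keratinised epidermis, were under 10 CPM in every library. Krt10 and Krtdap of the same list were among the 6 measured, so not all epidermal genes were that low. Of 13 basal genes, 3 were lower in the losartan than in the saline library and none higher (median log2 ratio -0.17), beside 5.7% and 2.14% of all genes. For saline over uninjured 5 were higher and 4 lower (median 0.14), beside 19.5% and 17.4% of all genes. For losartan over uninjured 4 were higher and 4 lower (median 0.04), beside 15.3% and 19.3%. Krt14, a basal keratin, stood at 11134 CPM in the losartan, 12497 CPM in the saline and 1085 CPM in the uninjured library.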

How the data were processed

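Droplet single-cell libraries of cornea and limbus, 1 each for NM with losartan, NM with saline and no injury, were read as raw UMI counts for each gene and barcode, deposited by the authors. Per the file headers they were made with Cell Ranger 8.0.0, and per the submitters' processing notes with GRCm38; the gene annotation release, the handling of intronic reads and the use of strand are not stated by the labels. The lowest barcode held 500 UMIs in each library. Cells with at least 500 genes and at most 20% mitochondrial counts were kept, a simulated-doublet score removed 0.8% of barcodes for each 1000, and 4919 losartan, 5800 saline and 11233 uninjured cells remained. Cells were clustered with scanpy 1.11.5 and leidenalg 0.10.2 (2000 variable genes without the 8 members, 30 components, 20 neighbours, resolution 0.8), and clusters were named by marker lists. Clusters whose median depth was under 1 in 3 of their library's stayed unnamed unless a marker was among their 10 leading genes.

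Counts were summed over epithelial-like cells of each library and scaled to CPM by the class total. Intervals are 95%: exact Poisson for levels, conditional binomial for ratios and Clopper-Pearson for shares (SciPy 1.17.1). Calls need 1.5-fold on CPM + 5; all genes at 10 CPM or more in either library give the background. No count model was fitted, since each group is 1 library. Thinning drew 3000 UMIs for each cell and left out 339 losartan, 396 saline and 699 uninjured cells. The calculations were tested on simulated data. Alternatives were other scalings, pseudocounts, filters, doublet handling, depths, a gate on single cells, and 3 choices added after seeing the data. All 8 members are named; likeness names the 5 highest and 5 lowest genes for Krt12 and the 3 highest for each factor, and gene lists give the highest and lowest ratios, with other list genes chosen after their values were seen. The members and lists were chosen with earlier results of these data known.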

Additional observations from a re-analysis of the deposited data

Results flagged for a closer look

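Elf3 had losartan to saline CPM ratios on opposite sides of 1 in different clusters: 1.26 in cluster 5 (95% counting interval 1.19 to 1.34), 1.81 in cluster 12 (1.58 to 2.07) and 0.771 in cluster 7 (0.759 to 0.783). Pax6 did so with 1.37 in cluster 5 (1.29 to 1.46) and 0.928 in cluster 7 (0.874 to 0.985). Pax6 also had top to bottom Krt12 group ratios of 1.40 in the losartan library (1.08 to 1.83) and 2.18 in the saline library (1.43 to 3.38), against 0.926 in the uninjured library (0.876 to 0.978). Each was picked because the same contrast ran opposite ways beyond counting error, and the difference itself was not tested, since each group is 1 library. The bottom group behind the saline ratio of 2.18 is a random draw of tied cells, which its interval does not cover. Against all 437 saline cells with no Krt12 UMI the Pax6 ratio was 1.61 (1.18 to 2.19). Over the alternatives tried, the Pax6 ratio ranged from 1.11 to 2.03 in the losartan, 1.01 to 2.18 in the saline and 0.876 to 1.15 in the uninjured library.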

How the results depend on the processing

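No paired analysis was possible because each group is 1 library. Of 106 recomputed counts, 99 stayed within 1.5 times their main value. With cells thinned to 3000 UMIs, 1 member was higher in the saline than in the uninjured library (Elf3) and 1 in the losartan than in the uninjured library (Grhl3), in place of none. For the Krt12 groups, no factor (0) was lower in the top group within the largest cluster in the losartan library or in the saline library, nor in the saline library with no doublets removed or with cells thinned to 1500 UMIs; at that depth 5 factors were higher there in place of 3. Within the largest cluster the ratio of Grhl3 in the losartan library was 0.844 and that of Trp63 in the saline library 1.05, both reversed. The cause was not tested. Over the alternatives the losartan over saline ratio was 4.70 to 5.38 for Krt12 and 1.57 to 1.79 for Klf4, and the saline over uninjured ratio of Pax6 was 0.223 to 0.235. None of the members was a variable gene, so clustering with them allowed gave the same clusters. Setting aside shallow cluster 12, adding the shallow unnamed clusters, or taking all saline cells with no Krt12 UMI as the bottom group, choices made after seeing the data, kept every count within 1.5 times; with the last, Ehf at 1.44 was no longer among the factors that were higher. Depth limits the shares of cells: thinning to 3000 UMIs lowered the share of each member in each library. With CPM + 1, no doublets removed, the gate on single cells or thinning to 3000 UMIs, 3 members were lower in the losartan than in the uninjured library in place of 2, the added one being Trp63.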
